A study of Mus with 6 samples.

Results

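The genes described here are 10 genes of the inflammasome, of pyroptosis and of the interleukin-1 (IL-1) family, out of 48882 genes in the deposited table. They were chosen by name: the sensors Nlrp3 and Nlrp6, the adaptor Pycard, the caspases Casp1 and Casp4, the pore protein Gsdmd, the cytokines Il1b and Il18, the antagonist Il1rn and the receptor Il1r1. All 10 were found, each with a value in all 6 libraries. RNA came from flash-frozen whole liver of mice lacking Fabp4 (labelled FABP4-/-) and of wild type littermates (WT), with 3 libraries per genotype. Fabp4 encodes a fatty acid-binding protein known from adipocytes and macrophages. Both genotypes had been fed the ethanol-containing Lieber-DeCarli liquid diet for 8 weeks and then given 1 ethanol binge, which is used to model alcoholic steatohepatitis, so the comparison is between ethanol-fed groups. Livers without ethanol were not analysed here, and the sex and age of the mice, and the promoter or cell type in which the gene was removed, are not stated in the labels.

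An inflammasome is a cytosolic complex in which a sensor such as NLRP3 recruits the adaptor ASC, the product of Pycard, which in turn recruits and activates caspase-1. Caspase-1 cleaves the precursors of IL-1β and IL-18 and cleaves gasdermin D, whose freed part forms membrane pores and can kill the cell by pyroptosis. Mouse caspase-4, also called caspase-11, binds bacterial lipopolysaccharide in the cytosol and cleaves gasdermin D without a sensor of the NLRP kind. In liver the pathway is best known from Kupffer cells, the resident macrophages, and from infiltrating myeloid cells, while hepatocytes respond to IL-1 by secreting acute-phase proteins. Activation happens largely at the protein level by assembly and cleavage, which RNA does not measure.

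Levels are in TPM, which is defined as a transcript share corrected for gene length. The deposited values have distributions that coincide between libraries, as quantile normalization leaves them. They are therefore not exact shares, and levels of different genes can be compared only roughly. Fabp4 was at 14.7, 8.15 and 19.96 TPM in wild type replicates 1 to 3 and was listed without a value in all 3 knockout libraries. The libraries had value totals of 983800 to 1018118 TPM. Reads per library are unknown, because TPM keeps no depth. Wild type replicate 2 (-38.1) stood apart on the first principal component, where knockout replicates 2 and 3 lay at 22.3 and 21.6. On the second component knockout replicate 1 (-30.8) and wild type replicate 1 (21.8) stood apart, at opposite ends. The hepatocyte marker list summed to 129800 to 135200 TPM, and all 12 of its markers had a value in every library, so the liver label was met by its defining markers. Alb, the most abundant gene, stood at the same 98738 TPM in all 6 libraries. It makes up most of each sum, so the sums could differ little between libraries. In whole liver, fewer cells of a type and less RNA per cell cannot be told apart.

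None of the 10 genes passed the test for a difference between genotypes. Of the 9 tested, 0 had a limma adjusted p under 0.05 (Benjamini-Hochberg over 14155 genes), against 0.00706% of all genes tested, which is 1 gene, Fabp4. At an unadjusted limma p under 0.05 there were again 0 of 9, against 8.03% of all genes tested. Nlrp3 averaged less than 0.5 TPM and was not tested. In the knockout 5 of the 9 averaged higher and 4 lower, with a median difference of 0.05 on the log2(TPM + 1) scale, and over all genes tested 57.4% averaged higher and the median was 0.04. The adjusted p of the 9 genes lay between 0.662 and 0.976. The 3 knockout values lay wholly outside the 3 wild type values for 1 of the 9, Gsdmd, where 13.3% of all genes tested had such groups. Differences below are knockout minus wild type on the log2(TPM + 1) scale, with the standard error (SE) and the 95% interval from limma.

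**Figure D1:**
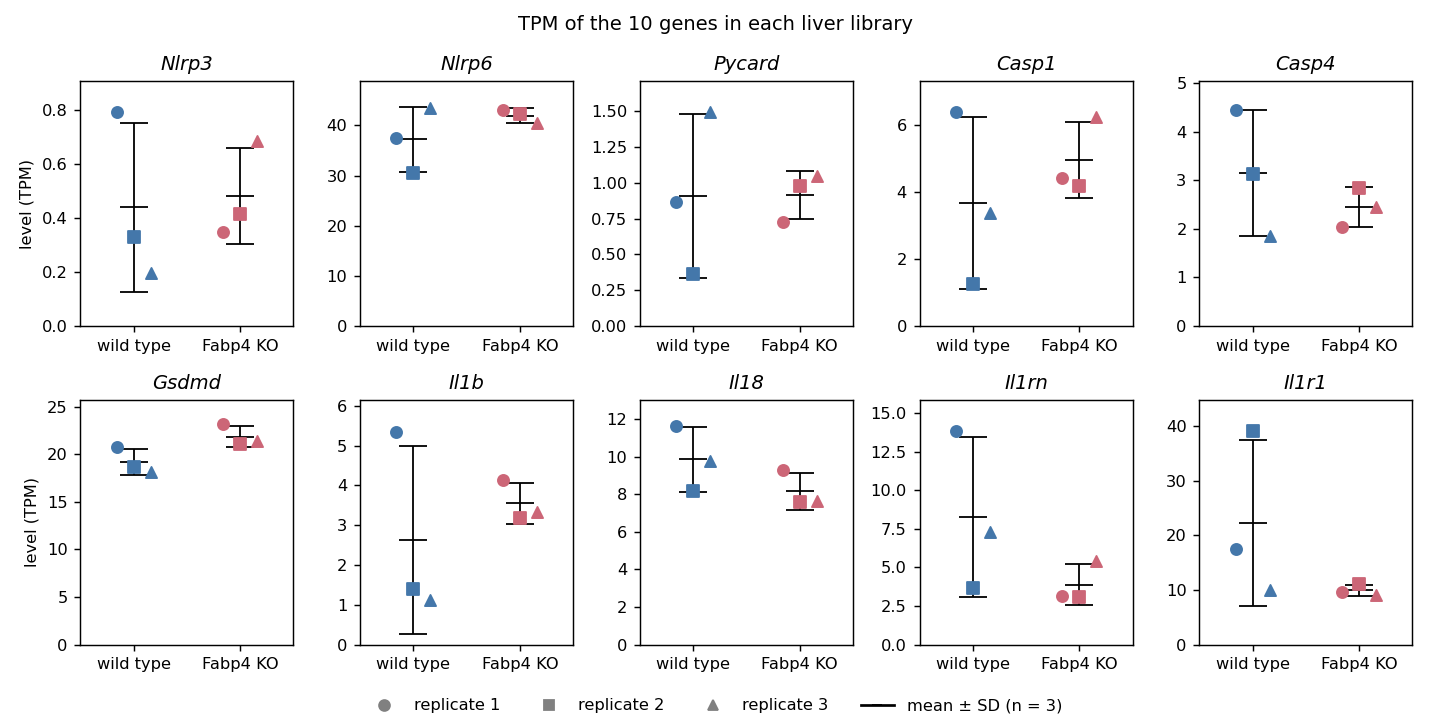
Level in TPM (vertical axis, from 0, own scale per gene) of the 10 genes in each of 3 wild type (blue) and 3 Fabp4 knockout (red) libraries; marker shapes give the replicate number, bars the mean ± SD (n = 3). The groups overlap for every gene but Gsdmd, and the wild type points are spread more widely than the knockout points.

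The 10 genes spanned a wide range of levels. Averaged over the 6 libraries, Nlrp6 was the most abundant at 39.6 TPM, within the top 16.2% of genes tested, followed by Gsdmd at 20.5, Il1r1 at 16.1, Il18 at 9.0 and Il1rn at 6.07 TPM. Casp1 averaged 4.32, Il1b 3.08, Casp4 2.79, Pycard 0.914 and Nlrp3 0.460 TPM. The step from Nlrp6 to Gsdmd and the step from Casp4 to Pycard were larger than the spread, since the ranges over 6 libraries did not overlap. Between the other neighbours in this order the ranges overlapped. Il1r1 still lay above Il18, and Pycard above Nlrp3, within each of the 6 libraries. Il1rn lay above Casp1 in all 3 wild type libraries and below it in all 3 knockout libraries. This pair was noted after the values were seen. How many other gene pairs switch in this way was not counted, so the switch is a description only.

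Among the sensors, Nlrp3 (mm10 chromosome 11, 59541569 to 59566956, plus strand), which responds to potassium loss and membrane damage, measured 0.790, 0.329 and 0.196 TPM in wild type replicates 1 to 3 and 0.349, 0.412 and 0.684 TPM in knockout replicates 1 to 3. These are low levels, the highest and the lowest both in the wild type, and the knockout values lay between them. The difference of 0.06 carries no test, and its sign changed without wild type replicate 3 (-0.065) or knockout replicate 3 (-0.038). Nlrp6 (chromosome 7, 140920902 to 140929192, plus strand), a sensor best known from intestinal epithelium, measured 37.6, 30.5 and 43.6 TPM over wild type replicates 1 to 3, with 43.1, 42.3 and 40.4 TPM over the knockout replicates. Wild type replicate 2 was the lowest and replicate 3 the highest, and the 3 knockout libraries were close together. The difference was 0.18 (SE 0.15, interval -0.16 to 0.53, limma adjusted p 0.794). The adaptor gene Pycard (chromosome 7, 127991373 to 127993867, minus strand) measured 0.868, 0.360 and 1.5 TPM across wild type replicates 1 to 3, and 0.728, 0.980 and 1.05 TPM across knockout replicates 1 to 3, so that the knockout range lay inside the wild type range. Its difference of 0.05 (SE 0.24, interval -0.50 to 0.60, limma adjusted p 0.976) had the largest p of the 9, and its sign changed after quantile normalization (-0.014) and on leaving out knockout replicate 3 (-0.0012) or wild type replicate 2 (-0.18).

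The caspase genes Casp1 (chromosome 9, 5298517 to 5307281, plus strand) and Casp4 (chromosome 9, 5308825 to 5336791, plus strand) lie side by side, 1543 bases apart. Casp1 measured 6.39, 1.26 and 3.37 TPM over wild type replicates 1 to 3, with 4.43, 4.19 and 6.26 TPM over the knockout replicates. Wild type replicate 1 was the highest of the 6 libraries and replicate 2 the lowest, and the knockout libraries lay between them. The difference was 0.49 (SE 0.39, interval -0.42 to 1.41, limma adjusted p 0.788). It was 0.91 without wild type replicate 1 (limma adjusted p 0.538) and 0.05 without wild type replicate 2. Casp4 measured 4.45, 3.13 and 1.85 TPM across wild type replicates 1 to 3, and 2.03, 2.85 and 2.45 TPM across knockout replicates 1 to 3. Here wild type replicate 1 was again the highest, but replicate 3 was the lowest. The difference was -0.22 (SE 0.24, interval -0.79 to 0.34, limma adjusted p 0.853). Without wild type replicate 1 it was -0.0020, and without replicate 3 it was -0.47.

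Gsdmd (chromosome 15, 75862143 to 75867408, plus strand), the shared substrate of both caspases, measured 20.8, 18.7 and 18.1 TPM over wild type replicates 1 to 3, with 23.1, 21.1 and 21.4 TPM over the knockout replicates. All 3 knockout libraries lay above all 3 wild type libraries, by a narrow margin between wild type replicate 1 and knockout replicate 2. The means were 19.2 ± 1.4 TPM (SD, n = 3) in the wild type against 21.9 ± 1.12 TPM (SD, n = 3) in the knockout. The difference was 0.18 (SE 0.12, interval -0.09 to 0.45, limma adjusted p 0.750), and an exact permutation test (two-sided) returned p = 0.1, below which 3 against 3 libraries cannot go. Groups with the knockout wholly higher were found for 8.94% of all genes tested.

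**Figure D2:**
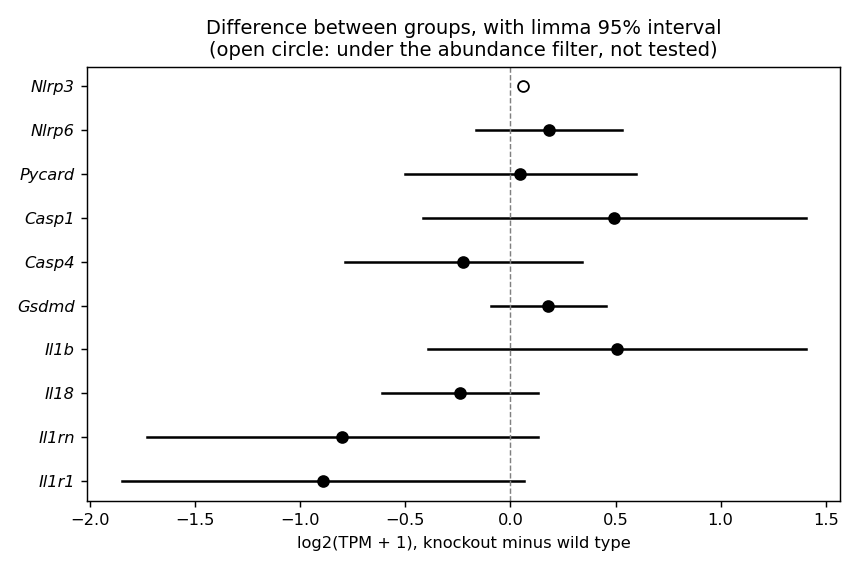
Difference between genotypes for each gene in log2(TPM + 1), knockout minus wild type (horizontal axis), with the limma 95% interval as a line; Nlrp3, the open circle, was not tested. Every interval includes 0, and the intervals of Il1r1, Il1rn, Casp1 and Il1b are the widest.

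Il1b (chromosome 2, 129363842 to 129371170, minus strand), which encodes the precursor of the pyrogenic cytokine IL-1β, measured 5.34, 1.4 and 1.13 TPM across wild type replicates 1 to 3, and 4.13, 3.17 and 3.33 TPM across knockout replicates 1 to 3. The knockout libraries lay between wild type replicate 1, the highest of all, and the other wild type libraries. The difference was 0.51 (SE 0.39, interval -0.39 to 1.4, limma adjusted p 0.779). It was 1.0 without wild type replicate 1 (unadjusted limma p 0.000798, limma adjusted p 0.404) and 0.21 without wild type replicate 3. Il18 (chromosome 9, 50554705 to 50581841, plus strand), whose product drives interferon-γ release by T and NK cells, measured 11.6, 8.16 and 9.76 TPM over wild type replicates 1 to 3, with 9.28, 7.57 and 7.61 TPM over the knockout replicates. The ranges overlapped, with knockout replicate 1 above wild type replicate 2. The difference was -0.24 (SE 0.16, interval -0.61 to 0.13, limma adjusted p 0.751). Strandedness is not stated, and the Il18 locus overlaps 2 genes of the opposite strand, Bco2 by 517 bases and Tex12 by 4121 bases, which averaged 9.60 and 2.54 TPM, so reads in those stretches cannot be assigned with certainty. Il1b is overlapped by the antisense transcript Il1bos, which averaged 0.0653 TPM.

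Il1rn (chromosome 2, 24336860 to 24351491, plus strand) encodes the IL-1 receptor antagonist, which occupies the receptor without signalling. It measured 13.9, 3.63 and 7.29 TPM across wild type replicates 1 to 3, and 3.14, 3.08 and 5.39 TPM across knockout replicates 1 to 3. Wild type replicates 1 and 3 were above every knockout library, and wild type replicate 2 was below knockout replicate 3. The means were 8.26 ± 5.18 TPM (SD, n = 3) in the wild type against 3.87 ± 1.32 TPM (SD, n = 3) in the knockout, and the difference was -0.80 (SE 0.40, interval -1.73 to 0.13, limma adjusted p 0.685). It was -0.38 without wild type replicate 1 and -1.22 without wild type replicate 2 (unadjusted limma p 0.00617, limma adjusted p 0.834). Il1r1 (chromosome 1, 40225014 to 40316201, plus strand), the signalling receptor of IL-1α and IL-1β, measured 17.6, 39.2 and 9.98 TPM over wild type replicates 1 to 3, with 9.61, 11.1 and 9.0 TPM over the knockout replicates. Wild type replicates 2 and 1 stood above all the others, while wild type replicate 3 lay among the knockout libraries. The means were 22.3 ± 15.2 TPM (SD, n = 3) in the wild type against 9.90 ± 1.08 TPM (SD, n = 3) in the knockout, and the difference was -0.89 (SE 0.41, interval -1.85 to 0.07, limma adjusted p 0.662), the smallest adjusted p of the 9. Without wild type replicate 2 it was -0.39, and without wild type replicate 3 it was -1.33 (unadjusted limma p 0.00442, limma adjusted p 0.353).

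The antagonist and the agonist of the IL-1 receptor were also compared within each library, which removes a scaling that acts on the whole library. The ratio of Il1rn TPM to Il1b TPM was 2.59, 2.59 and 6.47 in wild type replicates 1 to 3. In knockout replicates 1 to 3 it was 0.760, 0.971 and 1.62. The ratio was higher in each wild type library than in any knockout library, although both genes on their own overlapped between groups. As log2 of (TPM + 1) ratios the means were 1.38 ± 0.52 (SD, n = 3) in the wild type and 0.074 ± 0.45 (SD, n = 3) in the knockout, a difference of -1.31. An exact permutation test (two-sided) returned p = 0.1, the lowest this design can reach, so the ratio cannot pass a threshold of 0.05 here. In the alternatives, leaving out libraries included, the difference stayed between -1.67 and -1.02. The like comparison for IL-18 set its soluble inhibitor Il18bp against Il18. There the ratio of TPM was 1.89, 1.72 and 0.940 in the wild type libraries and 1.07, 1.49 and 2.77 in the knockout libraries. The groups overlapped, and the difference of the log2 ratios was 0.16 (exact two-sided permutation p = 0.9), with a sign that changed without wild type replicate 3 (-0.13) or knockout replicate 3 (-0.20).

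**Figure D3:**
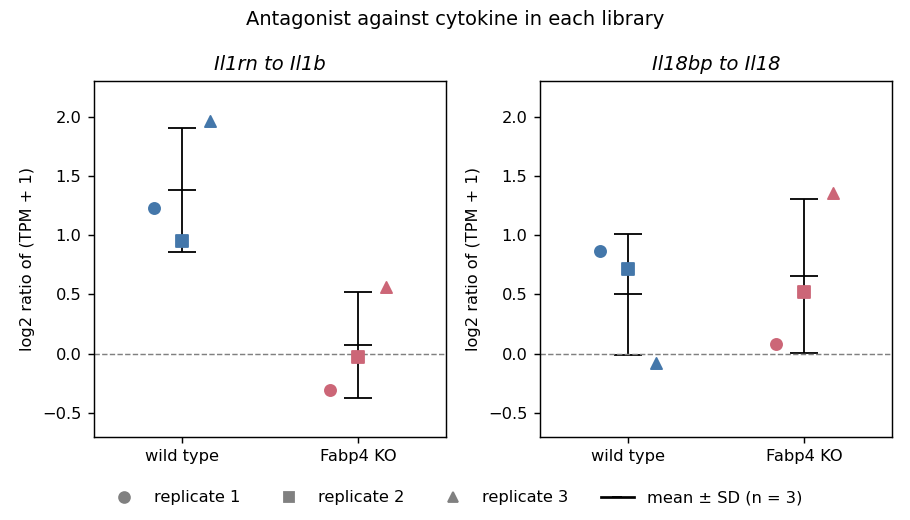
Log2 ratio of (TPM + 1) of Il1rn to Il1b (left) and of Il18bp to Il18 (right) in each library, with the mean ± SD (n = 3) of each genotype; the dashed line marks equal levels. The 3 wild type points of the left panel lie between 0.95 and 1.96, above the knockout points at -0.31 to 0.56, and the groups of the right panel overlap.

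The spread between libraries was larger in the wild type than in the knockout for all 10 genes, measured as the SD of log2(TPM + 1). Among all genes tested the wild type SD was the larger for 54.1%. The gap between the 2 SDs was widest for Il1r1, with an SD of 0.94 in the wild type and 0.14 in the knockout, and for Il1b, with 0.86 and 0.16. The gap was narrowest for Gsdmd (0.098 and 0.070) and Il18 (0.23 and 0.15). Without wild type replicate 1 the count was 7 of 10, with Nlrp3, Gsdmd and Il1b no longer among them (47.1% of all genes tested), and without any 1 of the other 5 libraries it was 10 of 10. Wild type replicate 1 was the highest of the 6 libraries for Casp1, Casp4, Il1b, Il18, Il1rn and, among genes not tested, Nlrp3. That makes 5 of the 9 tested genes, against 16% of all genes tested, and wild type replicate 2 was the lowest for 3 of the 9, Nlrp6, Pycard and Casp1, against 24.2%. The 10 genes were read in the same libraries and are not independent of each other, and an SD over 3 libraries is imprecise.

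**Figure D4:**
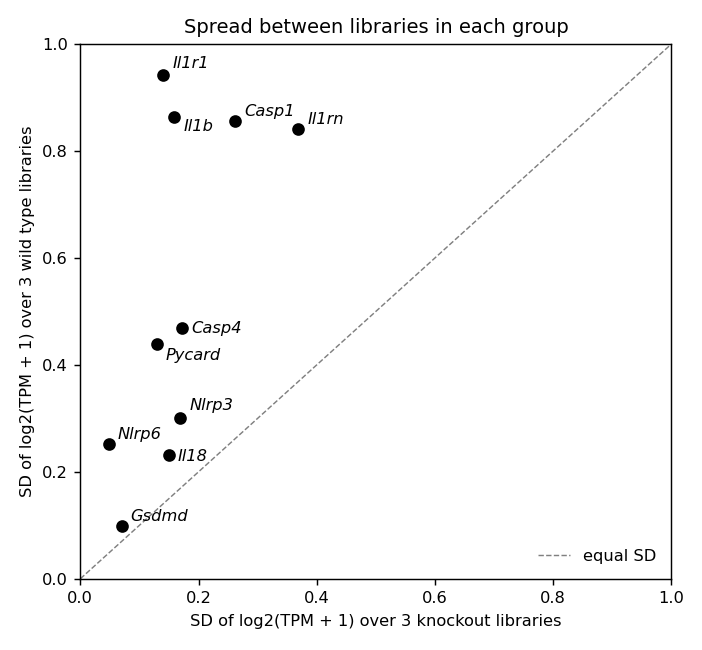
SD of log2(TPM + 1) over the 3 wild type libraries (vertical axis) against the SD over the 3 knockout libraries (horizontal axis), 1 point per gene. All 10 points lie above the dashed line of equal SD, Il1r1 and Il1b farthest and Gsdmd closest.

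Markers of liver cell types also differed between libraries. Which cells carried the 10 transcripts was not measured. The 12 macrophage and Kupffer cell markers, all measured in every library, summed to 753, 248 and 330 TPM in wild type replicates 1 to 3 and to 529, 616 and 1164 TPM in knockout replicates 1 to 3. The 2 libraries with the lowest sums, wild type replicates 2 and 3, also had the 2 lowest levels of Casp1 and of Il1b. The 2 highest levels of Casp1 and of Nlrp3 were found where the sums were largest, in knockout replicate 3 and wild type replicate 1. Not all members followed the sums. Il1b was at 3.33 TPM in knockout replicate 3, below wild type replicate 1 (5.34) and knockout replicate 1 (4.13). In wild type replicate 3 Il1rn (7.29 TPM) and Pycard (1.5 TPM) were higher than in any knockout library. The 6 monocyte markers summed to 3.71 to 8.73 TPM in the wild type and 4.23 to 7.05 TPM in the knockout. The summed level of the 8 endothelial markers did not overlap. It was 119 to 155 TPM in the wild type and 176 to 211 TPM in the knockout. Of these 8 markers 7 were wholly higher in the knockout on their own, against 8.94% of all genes tested. Of the 12 macrophage and Kupffer cell markers 2 were wholly higher and all 12 averaged higher, against 57.4% of all genes tested. All 8 endothelial, all 8 stellate cell and all 5 tested cholangiocyte markers averaged higher too. The 8 stellate cell markers summed to 246 to 306 TPM in the wild type and 290 to 366 TPM in the knockout. Dcn, at 201 to 309 TPM, makes up most of each of these sums. The 6 cholangiocyte markers summed to 45.5 to 80.7 TPM and 49.0 to 75.8 TPM, of which Spp1, at 41.8 to 73.6 TPM, makes up most. The 8 T, NK and B cell markers summed to 5.25 to 10.1 TPM and 7.09 to 10.5 TPM. The 11 neutrophil markers summed to 41.4, 50.3 and 21.2 TPM in the wild type and to 15.9 to 20.8 TPM in the knockout. S100a8 (7.81 to 21.5 and 4.60 to 9.64 TPM) and S100a9 (11.2 to 23.1 and 9.13 to 11.6 TPM) make up most of each sum. Of the 4 markers tested, 3 (S100a8, S100a9 and Retnlg) were lower at an unadjusted limma p under 0.05, against 2.91% of all genes tested. None passed the adjusted threshold, and Csf3r differed by -0.12 (SE 0.22). Camp was at 0 in every library, and the defining genes Ly6g and Mpo had a value in wild type replicate 2 only, at 0.104 and 0.0378 TPM. The granule gene Ngp had a value in knockout replicates 1 and 2 only, at 0.0830 and 0.157 TPM, and Cxcr2 overlapped between groups (0.158 to 0.437 TPM in the wild type, 0.257 to 0.417 TPM in the knockout). The part of these cells in the differences above was not tested.

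**Figure D5:**
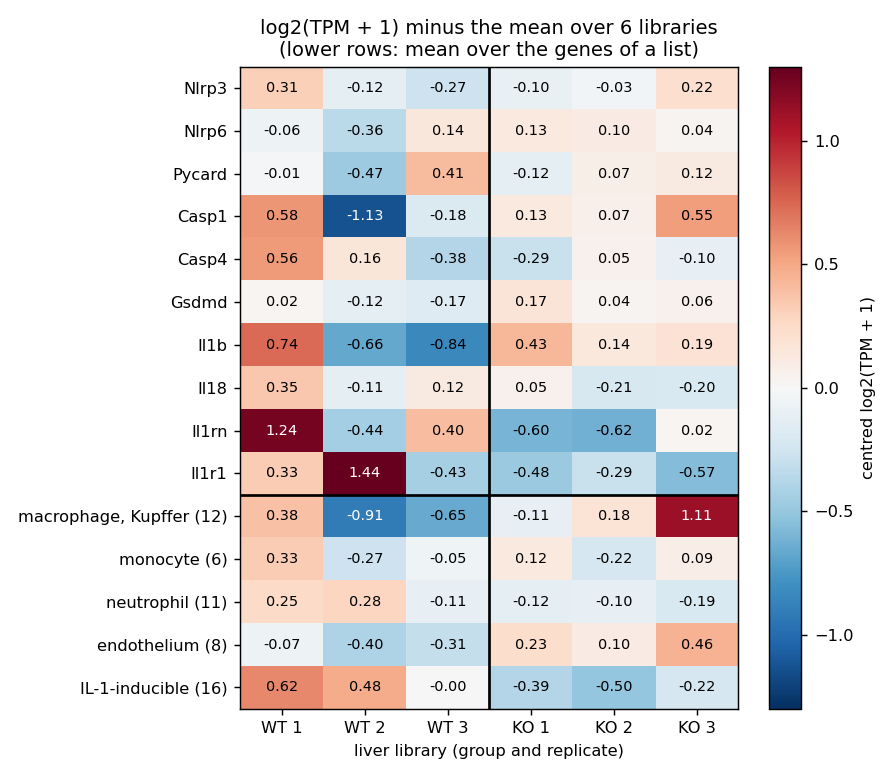
Log2(TPM + 1) minus its mean over the 6 libraries (colour and printed value) for the 10 genes (upper rows) and for the mean of 5 gene lists (lower rows, number of genes in brackets); columns are libraries. Il1rn is highest in wild type replicate 1 (1.24) and Il1r1 in wild type replicate 2 (1.44), while the macrophage list is lowest in wild type replicate 2 (-0.91) and highest in knockout replicate 3 (1.11).

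The other genes of the pathway were taken from 5 lists with 66 genes, of which 65 were matched and 45 were abundant enough to test. None passed the limma adjusted threshold. At an unadjusted limma p under 0.05 there was 1 higher, against 5.12% of all genes tested, and 1 lower, Nlrp12, against 2.91%. After median scaling that background held 531 genes higher and 558 lower, in place of 725 and 412, and Irak4 (limma unadjusted p 0.0437) joined Nlrp12 on the lower side. Of the 45 genes, 19 averaged higher and 26 lower, with a median difference of -0.03 beside 0.04 for all genes tested. The groups did not overlap for 2 higher and 2 lower genes of the 45, against 8.94% and 4.38% of all genes tested.

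Among other sensors, 3 of 12 genes were tested. Nlrp12, known mostly as a restraint on NF-kB signalling, measured 20.1, 33.3 and 12.2 TPM across wild type replicates 1 to 3, and 15.0, 6.81 and 4.4 TPM across knockout replicates 1 to 3. Knockout replicate 1 lay above wild type replicate 3, and the difference was -1.27 (SE 0.45, limma adjusted p 0.564). Nlrp12 lay below Nlrp6 in wild type replicates 1 and 3 and above it in wild type replicate 2. Naip5 and Naip2, which bind bacterial flagellin and secretion system proteins, differed by 0.51 (SE 0.25) and 0.21 (SE 0.22), and reads of the near-identical Naip copies may be shared. The DNA sensor Aim2, the pyrin gene Mefv, Nlrc4, Nlrp1a, Nlrp1b, Naip1, Naip6 and Nlrp10 were under the filter, and Nlrp9b was listed without a value.

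Of 14 triggers and regulators 13 were tested, 6 higher and 7 lower, and none at an unadjusted limma p under 0.05. P2rx7, the ATP-gated channel that precedes potassium loss, measured 1.15, 0.596 and 0.686 TPM over wild type replicates 1 to 3, with 1.16, 1.08 and 1.65 TPM over the knockout replicates (0.35, SE 0.18). Gpsm3, a G-protein regulator of myeloid cells, differed by 0.42 (SE 0.22) and the NOD-like receptor gene Nlrc5 by -0.35 (SE 0.19). Txnip, a thioredoxin-binding protein reported to engage NLRP3, measured 240, 171 and 99.96 TPM across wild type replicates 1 to 3, and 121, 138 and 102 TPM across knockout replicates 1 to 3 (-0.42, SE 0.30). For all 13 of these genes the SD was larger in the wild type, as for 54.1% of all genes tested. In the other pathway lists this held for 1 of 3 tested sensors and 7 of 12 cell death genes. It held for 4 of 5 other IL-1 family genes and 7 of 12 signalling genes.

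Of the 13 other genes of cell death, 12 were tested, 5 higher and 7 lower. Casp8, the initiator caspase of the death receptors, differed by -0.24 (SE 0.15) and the necroptosis kinase gene Ripk3 by 0.33 (SE 0.24). The kinase gene Ripk1 differed by -0.13 (SE 0.12). Ninj1, which ruptures the plasma membrane after gasdermin pores have formed, measured 169, 178 and 182.2 TPM across wild type replicates 1 to 3, and 182.4, 182.5 and 193 TPM across knockout replicates 1 to 3. All 3 knockout libraries were above all 3 wild type libraries by a narrow margin, as for 8.94% of all genes tested. It was chosen after its values were seen, for groups that did not overlap, and its difference was 0.08 (SE 0.11).

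Of 15 other ligands, receptors and decoys of the IL-1 family, 5 were tested, 3 higher and 2 lower. Il1rap, the co-receptor needed for IL-1, IL-33 and IL-36 signalling, measured 28.2, 26.4 and 33.9 TPM over wild type replicates 1 to 3, with 24.3, 25.8 and 25.7 TPM over the knockout replicates. Every knockout library was below every wild type library, as for 4.38% of all genes tested, and the difference was -0.21 (SE 0.13, limma adjusted p 0.738). Il1a, the second agonist of the IL-1 receptor, measured 2.29, 1.01 and 2.51 TPM across wild type replicates 1 to 3, and 2.69, 2.14 and 2.86 TPM across knockout replicates 1 to 3 (0.32, SE 0.23). Sigirr, an inhibitory receptor of the family, differed by 0.22 (SE 0.21). Il18bp measured 22.0, 14.0 and 9.17 TPM over wild type replicates 1 to 3, with 9.89, 11.3 and 21.1 TPM over the knockout replicates (-0.08, SE 0.35). The decoy receptor Il1r2 and the IL-18 receptor genes Il18r1 and Il18rap stayed under 0.4 TPM in every library.

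All 12 genes of signalling below the receptor were tested, 3 higher and 9 lower, and none at an unadjusted limma p under 0.05. The kinase gene Irak4 differed by -0.35 (SE 0.17), the adaptor gene Myd88 by -0.36 (SE 0.28) and Ikbkg, the NEMO subunit of the IκB kinase, by -0.25 (SE 0.18). Tollip, an adaptor that restrains the receptor complex, measured 26.0, 29.5 and 25.9 TPM across wild type replicates 1 to 3. It measured 23.7, 24.8 and 23.6 TPM across knockout replicates 1 to 3 (-0.17, SE 0.11). The knockout was wholly lower, as for 4.38% of all genes tested. The wild type order seen for Il1r1, replicate 2 over 1 over 3, was shared by 6 of the 12 (Myd88, Irak1, Irak2, Irak4, Tollip and Tab2), against 21.1% of all genes tested. The order was looked up in the lists after it was seen for Il1r1. Genes read in the same libraries are not independent, so these counts are a description only. Il1r1 was the only 1 of the 9 tested members with that order. It was found for 3 of the 4 tested neutrophil markers, 4 of the 14 tested IL-1-inducible genes, 1 of the 3 tested other sensors (Nlrp12), 2 of 13 triggers and regulators, 2 of 12 cell death genes, 0 of 5 other IL-1 family genes and 0 of 12 macrophage markers.

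Genes known to be induced by IL-1 were read as a downstream list, of which 14 of 16 were tested, 3 higher and 11 lower, with a median difference of -0.60. None passed the limma adjusted threshold, and 5 were lower at an unadjusted limma p under 0.05, against 2.91% of all genes tested. These were the acute-phase genes Saa1 (-1.91, SE 0.26), Saa2 (-2.15, SE 0.39) and Orm1 (-0.81, SE 0.16), the siderophore-binding Lcn2 (-2.90, SE 0.73) and the metalloreductase gene Steap4 (-1.11, SE 0.35). The list was written with earlier results on acute-phase genes known, so that its direction is not independent evidence, and other cytokines such as IL-6 induce these genes too. The copies Saa1 and Saa2 are near-identical and can share reads, as can Orm1 with its own copies. Summed over the 16 genes the list stood at 2044, 2404 and 1573 TPM (wild type) and at 840, 1080 and 949 TPM (knockout), where Orm1 makes up most of each sum. Within the list Saa3 (0.07, SE 0.44), Ccl2 (0.06, SE 0.50) and Nfkbia (0.07, SE 0.22) were the 3 tested genes that averaged higher. Il6, under the filter, was at 0.428, 0 and 0.0858 TPM in wild type replicates 1 to 3 and at 0.726, 0.461 and 0.306 TPM in knockout replicates 1 to 3.

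For 4 of the genes the nearest profiles among named genes of at least 1 TPM were looked up, by the root mean square difference of centred log2(TPM + 1) over the 6 libraries. For Casp1, whose own profile had a root mean square of 0.573, they were Pilra (0.0961), Slfn2 (0.099) and Bcl2a1d (0.10), the last of which has near-identical copies. For Il1b (0.567) they were Fcgr3 (0.196), an IgG Fc receptor gene, Cd52 (0.206) and Evl (0.227). Il1rn (0.664) had Gbp10 (0.206), Ctcflos (0.214) and Nr0b2 (0.314) as its nearest, and Nlrp3 (0.202) had B4galt6 (0.0471), Sowahc (0.0534) and Gab2 (0.0605). The nearest profiles of Il1b and Il1rn were thus farther away than those of Casp1, which has a profile of similar size. With 6 libraries and so many genes, close profiles are found for many genes, and these names are a description only.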

How the data were processed

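The deposited table holds 1 value per gene and library for 6 liver libraries. Per the file headers these are TPM; the deposited numbers are in fact log2 values, running from -8.88 to 16.59, with antilogarithms that sum to 983800 to 1018118 per library. Their distributions coincide between libraries, as quantile normalization leaves them, so a shift of all genes cannot be seen. FastQC, Trimmomatic and build mm10 are named in the submitters' processing notes; versions, aligner, quantification, annotation and strandedness: not given in the sources used here. The deposited table also gives positions and lengths in bases, per the file headers.

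Blank values were taken as a TPM of 0. Values were back-transformed and tested as log2(TPM + 1), a pseudocount that understates the change of low genes, for the 14155 genes with a mean of at least 0.5 TPM. The genotype comparison used limma 3.58.1 under R 4.3.3 (eBayes with trend, genotype as the only term, two-sided, 4 residual and 3.65 prior degrees of freedom), Benjamini-Hochberg adjusted over all genes tested, threshold 0.05. Ratios were tested by exact permutation over the 20 splits of 3 against 3. The limma comparison was tested on simulated data in which genes were drawn independently of each other, and the permutation test was not. Alternatives were other pseudocounts, filters and scalings, no trend, a replicate block and leaving out libraries. No 2 libraries were identical. The labels do not say that each library is a separate mouse, so a p-value covers the spread of these libraries, which may be technical.

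The members and lists were chosen with earlier results of these data known. The rule for names was: all 10 genes, in each list up to 4 tested genes with the smallest p and any under an unadjusted p of 0.05, and the 3 nearest profiles of Nlrp3, Casp1, Il1b and Il1rn. Other genes were named after their values were seen. A gene that the rule names is not reported here. Of 163 list genes 162 were matched, 4 through another symbol in the GRCm38.p6 RefSeq gene table (Gsdme, Il36a, Il36b and Il36g).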

Additional observations from a re-analysis of the deposited data

How the results depend on the processing

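No member and no pathway gene passed the adjusted limma threshold under any of the 15 alternatives. This says little of stability, since Fabp4 itself missed that threshold without a filter (limma adjusted p 0.145), with the replicate block (0.0820) and without wild type replicate 1 (0.176), knockout replicate 1 (0.0922) or knockout replicate 2 (0.157). The members under an unadjusted limma p of 0.05 numbered 0 to 2, the pathway genes 1 to 5 and the IL-1-inducible genes 5 to 8. Of the IL-1-inducible genes 0 to 1 passed the adjusted threshold when 1 library was left out, the 1 being Saa1 without knockout replicate 3 (limma adjusted p 0.0493). The differences of Nlrp6, Casp1, Casp4, Gsdmd, Il1b, Il18, Il1rn and Il1r1 kept their sign in every alternative that gave a value, and the Il1rn to Il1b ratio stayed lower in the knockout in all 11 of its alternatives. Pycard changed sign after quantile normalization (-0.014) and without wild type replicate 2 and knockout replicate 1 together, an alternative chosen after seeing the data (-0.10). With 1 library left out, Pycard ranged from -0.18 to 0.26, Nlrp3 from -0.065 to 0.23 and the Il18bp to Il18 log2 ratio from -0.20 to 0.44 (0.55 without both libraries). The cause was not tested. Nlrp3 could be tested where a setting let it through the filter (limma adjusted p 0.939 to 0.966). With the replicate number as a replicate block, Il1r1 was the only member under an unadjusted limma p of 0.05 (0.0272, limma adjusted p 0.822), and the Il1rn to Il1b difference of -1.31 had an exact p of 0.25, the smallest that 3 pairs allow. Deviations of same-numbered libraries correlated at -0.26, -0.27 and -0.05 across genes, and those of libraries with unlike numbers at -0.06 to 0.28. These values gave no sign that the numbers pair the libraries. Deviations centred within 3 libraries cannot settle the question, and the labels do not state it. With a filter at 5 TPM 5 members were left. Depth is unknown, and 3 libraries per group limit the precision.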
